A study of Mus musculus with 36 samples.

Results

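Ephrins with their Eph receptors, and semaphorins with their plexin and neuropilin receptors, were followed through 36 bulk RNA sequencing libraries of mouse kidney progenitors. The members were taken by name from the deposited table: every protein-coding gene whose symbol was that of a numbered Eph receptor, ephrin, semaphorin or plexin, or was *Nrp1* or *Nrp2*. This gave 52 of the 22761 genes listed: 14 Eph receptors (9 EphA and 5 EphB), 8 ephrins, 2 neuropilins, 8 plexins and 20 semaphorins. No measured value entered the choice.

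The study made kidney organoids by joining ureteric bud (UB) cells with progenitors of nephrons (NP) and of stroma (SP), and compared cells made from mouse embryonic stem cells (mESC) with the same cell types taken ex-fetu. There were 9 groups of 4 libraries. NP, SP and UB cells of E11.5 and of E12.5 kidneys came from CD1 mice, each sample pooling the embryonic kidneys of a single mother; induced NP (iNP) and induced SP (iSP) came from the E14 mESC line; and engineered ureteric bud cells (eUB, labelled iUB by the submitters) came from a line labelled Sox9-mCherry-mESC. NP and iNP were sorted as ITGA8 high and PDGFRA low, and SP and iSP as ITGA8 low and PDGFRA high, after CD31-positive (endothelial) and EpCAM- or RET-positive cells had been gated out. Ex-fetu UB cells were sorted as EpCAM and RET positive, and eUB as EpCAM and mCherry positive. Strain and source went together in every mESC against ex-fetu comparison, so that they cannot be told apart, and each mESC-derived group rests on a single line. Among the mESC-derived cells, eUB differ from iNP and iSP in line and in differentiation protocol as well as in cell type, and these cannot be told apart either.

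Eph receptors are receptor tyrosine kinases, and ephrins are their membrane-bound ligands on neighbouring cells. Ephrin-A ligands are held by a lipid anchor and ephrin-B ligands cross the membrane, and both partners can signal into the cell that carries them, which moves cells together or apart and sharpens borders between tissues. Semaphorins are secreted or membrane-bound guidance proteins. Most signal through plexins, whose cytoplasmic part acts on small GTPases and the cytoskeleton, and the secreted class 3 semaphorins mostly need a neuropilin as co-receptor. In the developing kidney these families are known from the branching of the UB, from the growth of vessels and nerves and from the sorting of progenitors.

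Levels are given in normalised CPM, the authors' read counts scaled to a common library size (CPM) with edgeR's normalisation factors, and values after ± are SDs over the 4 libraries of a group (SD, n = 4). Fold changes are on log2(normalised CPM + 1), which understates the change of low genes, with their standard error (SE). Groups were compared with limma over all genes that reached 1 normalised CPM in 4 or more libraries of the fit, and a gene is called where its Benjamini-Hochberg adjusted p was under 0.05. Each ex-fetu sample was a pool from a mouse and each mESC-derived sample a pool of embryoid bodies from a batch of differentiation, so the p-values measure the spread between such pools. Comparisons of a group with several others (mESC-derived cells with E11.5 and with E12.5 cells, for example) share its libraries and are not independent of each other. Fewer cells of a type and less RNA per cell cannot be told apart in sorted bulk samples.

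The libraries held 13.0 to 52.5 M reads on genes, and 3 reads, the floor of detection used here, were worth 0.0605 to 0.223 normalised CPM. The labels of the ex-fetu UB samples disagree on age: those with E11.5 in the title carry E12.5 in their cell source field, and conversely. The titles were used and eUB were compared with both groups. If the titles were wrong, every E12.5 against E11.5 difference in UB would turn its sign. The UB against mesenchyme comparisons at each age would then set UB of an age against mesenchyme of the other. The eUB effects and their differences from those of SP and NP would be given for the wrong age. *Epcam* and *Ret* marked all UB groups, *Pdgfra* all SP groups and *Itga8* all NP groups, but *Foxd1*, a defining stromal gene, was at 15.2 in iSP against 410 and 668 in E11.5 and E12.5 SP (group means). The first E12.5 UB library stood apart: its nephron progenitor marker sum was 429.9 against 33.7 to 46.3 in the other 3, its stromal sum 194 against 59.6 to 69.7 and its endothelial sum 127 against 5.54 to 10.3. The first E12.5 NP and SP libraries had higher early stress genes (*Fos* at 1009 in SP against 180 to 302 in the other 3, *Atf3* at 116 in NP against 25.7 to 40.7) and lower markers of their own type (a sum of 1392 in NP against 2059 to 2315, and of 1391 in SP against 2623 to 2717). Macrophage markers summed to 56.7 to 96.0 in E11.5 UB and to 0.223 to 0.558 in eUB, with all 7 markers at a mean of at least 1 in the former and none in the latter. Endothelial markers summed to 72.1 to 127 in iNP and to 11.9 to 38.3 in E11.5 NP, with 9 and 7 of 9 markers at a mean of at least 1. Muscle and somite markers summed to 33.6 to 39.6 in iNP and 0.855 to 3.94 in E11.5 NP, erythroid markers to 44.2 to 1149 in E11.5 SP and at most 0.0483 in iSP, and neural progenitor markers to 419.8 to 424 in E11.5 UB and 42.8 to 99.3 in eUB. Of the muscle and somite markers, 6 of 6 had a mean of at least 1 in iNP and 0 of 6 in E11.5 NP, and of the erythroid markers 5 of 6 in E11.5 SP and 0 of 6 in iSP. The neural progenitor sum was almost wholly *Nes*, the only 1 of its 5 markers with a mean of at least 1 in E11.5 UB or eUB. In iNP 4 of the 5 had such a mean and in iSP 3, against 1 in E11.5 NP and in E11.5 SP, with *Sox2* at a mean of 29.7 in iNP and 1.37 in iSP. Their part in the results was not tested. Counts of members called in comparisons with E12.5 cells are given with and without the first E12.5 libraries.

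Nearly all of the 52 genes were detected: 46 had more than 3 reads in all 36 libraries, 44 had a mean above 10 normalised CPM in at least 1 group and 25 above 100. *Epha10*, *Epha5*, *Epha6* and *Sema3e* were at 0 in at least 1 library. Per kilobase of exons, which allows genes to be compared, a few members led each family. *Ephb4*, the receptor best known for pairing with ephrin-B2, and *Epha2*, an EphA receptor of epithelia, had the highest levels of the Eph receptors in the UB and NP groups taken ex-fetu and in eUB. In E11.5 UB they were at 55.7 and 60.04 normalised CPM per kb. In iNP and iSP, *Epha4* stood in place of *Epha2* behind *Ephb4*. *Ephb4* also led in ex-fetu SP, where *Epha2* and *Epha4* were at 25.2 and 24.4 normalised CPM per kb at E11.5, with overlapping libraries. At E12.5 *Epha2* was at 10.2 in SP with all libraries and at 4.64 without the first, a mean taken after the values had been seen, below *Epha7* (8.81) and *Epha4* (8.25) in the same 3 libraries. *Plxnb2*, a receptor for class 4 semaphorins, was the leading plexin in all 9 groups, at 41.6 (eUB) to 87.8 (E12.5 SP) normalised CPM per kb. The leading ephrin was *Efnb2* in every UB group, and *Efna2* or *Efnb1* in the mesenchymal groups. *Nrp1* exceeded *Nrp2* per kb in every group except iSP, where *Nrp2* was at 8.73 and *Nrp1* at 7.03. Summed per kb, Eph receptors were at 81.2 ± 15.2 in E11.5 NP, the lowest mean of the 9 groups, and at 171 ± 13.9 in E11.5 UB and 169 ± 2.58 in iSP, the highest means, whose ranges overlapped. Summed semaphorins were lowest in E11.5 NP (93.7 ± 7.33) and iSP (98.7 ± 7.19) and highest in E12.5 UB (195 ± 24.3).

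The members that varied least between the groups were counted first. The ratio of the highest to the lowest group mean was 1.49 for *Sema4c*, 1.88 for *Plxna1*, 1.97 for *Ephb4*, 2.11 for *Plxnb2*, 2.13 for *Plxna3* and 2.23 for *Efna4*. Of these, *Plxna1* and *Plxna3* are the plexin-A receptors that pair with neuropilins, and *Efna4* is a ligand of EphA receptors. *Plxna1*, *Efna4* and *Sema4c* share 10.7, 10.5 and 7.27% of their exonic bases with a gene on the opposite strand. *Efnb2*, *Epha2*, *Epha1* and *Epha3* varied far more, with ratios of 17.3, 48.6, 33.7 and 147. *Epha10* reached a mean of 1.04 in E11.5 SP and passed the filter of no comparison. *Epha6* reached 1.97, *Sema3e* 5.62 and *Sema6b* 6.19. A member that passes the filter only in the group where it is high had to differ, so the counts of calls below describe the members that passed and do not cover all 52.

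**Figure D1:**
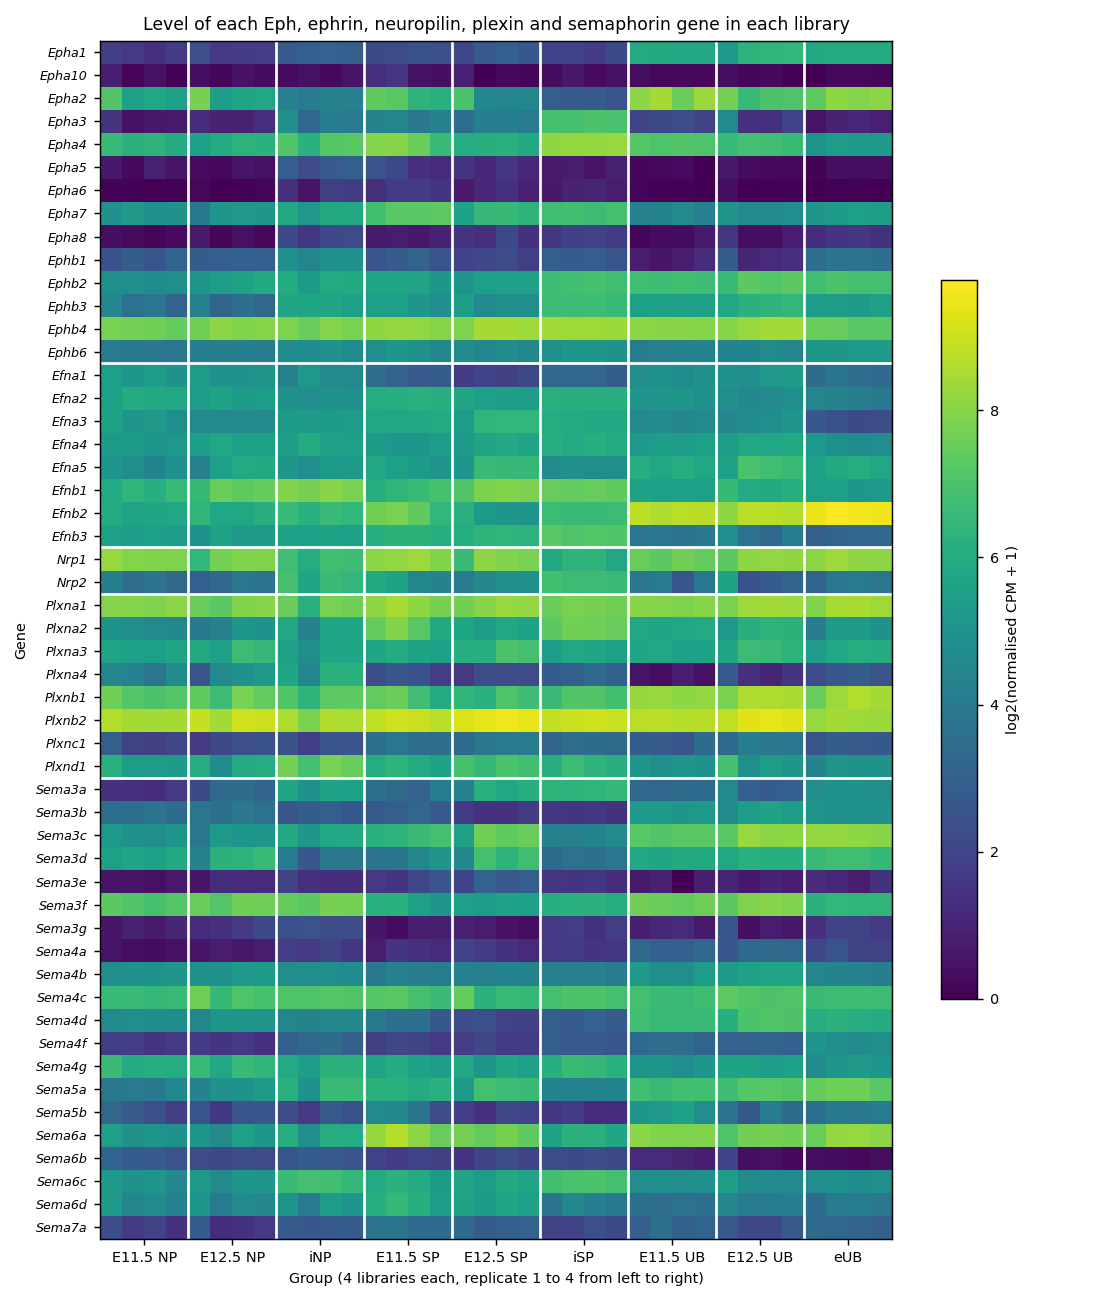
Level of the 52 genes (rows, by family) in the 36 libraries (columns, 4 per group) as log2(normalised CPM + 1), with white lines between groups and families. *Efnb2* is highest in eUB (mean 769 normalised CPM), *Plxnb2* is high throughout, and the first E12.5 UB, NP and SP libraries differ from their groups in several rows.

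The first question was which guidance genes separate the epithelial UB from the mesenchyme around it, taken as the mean of NP and SP. At E11.5, 37 of 49 members were called, 21 higher and 16 lower in UB, where 56.4% of all 14500 genes tested were called. The median log2 fold change of the members was 0.039 and that of all genes -0.014. Of the semaphorins, 13 of 19 were higher and 5 lower, where 26.9% of all genes were called higher in UB. At E12.5, 32 of 50 were called (20 higher and 12 lower, 40.3% of all genes), and 35 without the first E12.5 UB library (20 higher and 15 lower, 40.0% of all genes). Among the mESC-derived cells, 45 of 51 were called (19 higher and 26 lower, 62.9% of all genes). Of the 48 members tested in all 3 sources, 13 were higher in UB in each of them: *Efnb2*, *Epha1*, *Epha2*, *Ephb2*, *Plxnb1*, *Sema3b*, *Sema3c*, *Sema4a*, *Sema4d*, *Sema4f*, *Sema5a*, *Sema5b* and *Sema6a*. A further 10 were lower in each: *Efna2*, *Efna3*, *Efnb1*, *Efnb3*, *Epha5*, *Epha7*, *Plxna4*, *Sema6b*, *Sema6c* and *Sema6d*. For 7 members (*Efna1*, *Epha4*, *Ephb3*, *Nrp1*, *Plxna2*, *Sema3a* and *Sema3f*) the direction was not the same in all sources. Of all genes tested in the 3 sources, 13.0% were higher in UB in each, 11.4% lower in each and 8.10% called in both directions. Without the first E12.5 UB library the members came to 12, 10 and 7 of 48, with *Epha2* no longer among the first and *Plxnd1* in place of *Efna3* among the second. The shares of all genes were not counted for that setting.

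*Efnb2* (ephrin-B2, GRCm38 chromosome 8, 8617434 to 8661242) was the leading ephrin of the UB. It was at 442, 386, 425 and 415 normalised CPM in the 4 E11.5 UB libraries, 277, 429, 430.1 and 393 in E12.5 UB and 721, 868, 762 and 725 in eUB. In the mesenchyme it lay between 33.2 (E12.5 SP) and 219 (E11.5 SP), so that no mesenchymal library of any source reached a UB library. The log2 fold change, UB against mesenchyme, was 2.14 (SE 0.19, limma adjusted p = 3.5e-07) at E11.5, 2.82 (SE 0.21, limma adjusted p = 2.4e-07) at E12.5 and 3.03 (SE 0.084, limma adjusted p = 4.1e-12) among mESC-derived cells. The other ephrin-B genes ran the other way. *Efnb3* was at 13.2, 13.3, 12.54 and 14.2 in E11.5 UB against 69.8, 76.0, 77.1 and 69.5 in E11.5 SP, a log2 fold change against the mesenchyme of -2.004 (SE 0.065, limma adjusted p = 1.3e-11), and at 6.68, 7.77, 8.63 and 8.46 in eUB against 154, 135, 146 and 136 in iSP. In E12.5 UB *Efnb3* was at 26.5, 11.504, 8.77 and 16.1, with the highest value in the library that held stromal and NP markers. *Efnb1*, which signals to EphB receptors, was at 40.5 ± 5.60 in eUB against 234 ± 20.0 in iNP and 174 ± 7.09 in iSP.

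*Epha1*, an epithelial EphA receptor, was the member whose levels separated UB from mesenchyme most at E11.5. Its levels were 61.0, 59.8, 59.0 and 58.6 in E11.5 UB, 35.9, 79.5, 82.0 and 87.9 in E12.5 UB and 59.8, 62.7, 60.9 and 61.7 in eUB, and never above 7.41 in a mesenchymal library. The log2 fold change against the mesenchyme was 3.96 (SE 0.10, limma adjusted p = 2.5e-12), 3.84 (SE 0.25, limma adjusted p = 9.6e-08) and 3.52 (SE 0.094, limma adjusted p = 2.8e-12) in the 3 sources. The low value among UB libraries was that of the first E12.5 library; without it, the E12.5 log2 fold change was 4.14 (SE 0.20, limma adjusted p = 1.1e-08). *Epha1* shares 6.01% of its exonic bases with *Zyx* on the opposite strand, and the use of strand in counting is not stated. *Epha2* was at 269, 349.6, 192 and 312 in E11.5 UB, 211, 96.0, 129 and 132 in E12.5 UB and 161, 272, 244 and 267 in eUB. In iSP, by contrast, it was at 6.52, 6.02, 5.76 and 4.80. At E12.5 its values overlapped between UB and mesenchyme, because the first NP and SP libraries were at 217 and 126 against 21.3 to 55.2 in the other 6, and its call was lost in 10 of the 12 fits with 1 of the libraries left out. *Ephb2*, an EphB receptor, was at 108 ± 3.45 in E11.5 UB, above all 8 mesenchymal libraries (26.1 to 52.4), while in eUB (117 ± 10.2) it overlapped with iSP (112 ± 6.27).

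Among semaphorins, *Sema4d*, the ligand of plexin-B1, and its receptor gene *Plxnb1* were both higher in UB in all 3 sources. *Sema4d* was at 109, 97.2, 95.8 and 99.3 in E11.5 UB, 71.0, 129, 136 and 129.6 in E12.5 UB and 66.5, 75.5, 66.0 and 63.4 in eUB, against 2.62 to 34.8 over the 24 mesenchymal libraries. Its log2 fold change against the mesenchyme was 2.57 (SE 0.17, limma adjusted p = 1.5e-08) at E11.5 and 2.40 (SE 0.079, limma adjusted p = 2.3e-11) among mESC-derived cells. *Sema4d* is also a gene of immune cells, and macrophage markers were present in ex-fetu UB and at or near 0 in eUB, where *Sema4d* was at 67.8 ± 5.27. *Plxnb1* was at 293 ± 10.9 in E11.5 UB, 339 ± 76.9 in E12.5 UB and 312 ± 91.9 in eUB, with log2 fold changes of 1.10 (SE 0.23, limma adjusted p = 0.0012), 1.40 (SE 0.22, limma adjusted p = 0.00022) and 1.25 (SE 0.22, limma adjusted p = 0.00027). The secreted *Sema3b* was at 36.8, 38.2, 35.4 and 37.0 in E11.5 UB and at most 12.2 in E11.5 mesenchyme, with a log2 fold change of 2.002 (SE 0.10, limma adjusted p = 6.4e-10). *Sema3c*, a secreted ligand that binds neuropilins and plexin-D1, was at 286, 296, 271 and 257 in eUB against 59.0, 33.6, 56.3 and 58.6 in iNP and 18.4, 18.3, 20.0 and 22.9 in iSP, a log2 fold change of 3.09 (SE 0.14, limma adjusted p = 3.6e-10). At E11.5 the same comparison gave 1.44 (SE 0.10, limma adjusted p = 4.3e-08), with SP (92.2 ± 17.7) nearer to UB (147 ± 7.18) than NP (31.7 ± 3.31). The membrane semaphorins *Sema5a* and *Sema6a* were also low in NP alone at E11.5: *Sema5a* was at 108 ± 8.82 in UB, 70.9 ± 4.90 in SP and 16.4 ± 4.21 in NP, and *Sema6a* at 244 ± 14.3, 289 ± 89.8 and 34.5 ± 6.43.

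Of the plexins, *Plxna4*, which serves class 3 and class 6 semaphorins, was low in UB. It was at 0.484, 0.281, 0.680 and 0.356 in E11.5 UB against 21.98, 19.0, 13.3 and 25.2 in E11.5 NP, a log2 fold change against the mesenchyme of -2.78 (SE 0.18, limma adjusted p = 1.3e-08). In eUB it was at 3.71, 5.22, 6.44 and 4.71, and the log2 fold change there was -1.79 (SE 0.28, limma adjusted p = 9.4e-05). *Nrp1*, which binds class 3 semaphorins and VEGF, was lower in UB than in mesenchyme at E11.5 (178 ± 17.0 against 256 ± 34.7 in NP and 278 ± 32.9 in SP) and higher in eUB than in iNP and iSP (286 ± 25.8 against 97.3 ± 21.3 and 68.8 ± 14.0), where its log2 fold change was 1.82 (SE 0.15, limma adjusted p = 2.3e-07). *Nrp2* did the reverse of *Nrp1* among mESC-derived cells, with 7.80, 13.1, 15.4 and 13.2 in eUB against 116, 53.0, 96.9 and 86.3 in iNP and 110.3, 104, 103 and 97.0 in iSP and a log2 fold change of -2.86 (SE 0.19, limma adjusted p = 2.8e-08). *Epha3* was likewise low in eUB (0.446, 0.958, 1.202 and 0.814) and high in iSP (121, 120.3, 132 and 122), with the largest fall among the members called there, -4.66 (SE 0.21, limma adjusted p = 4.9e-10).

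**Figure D2:**
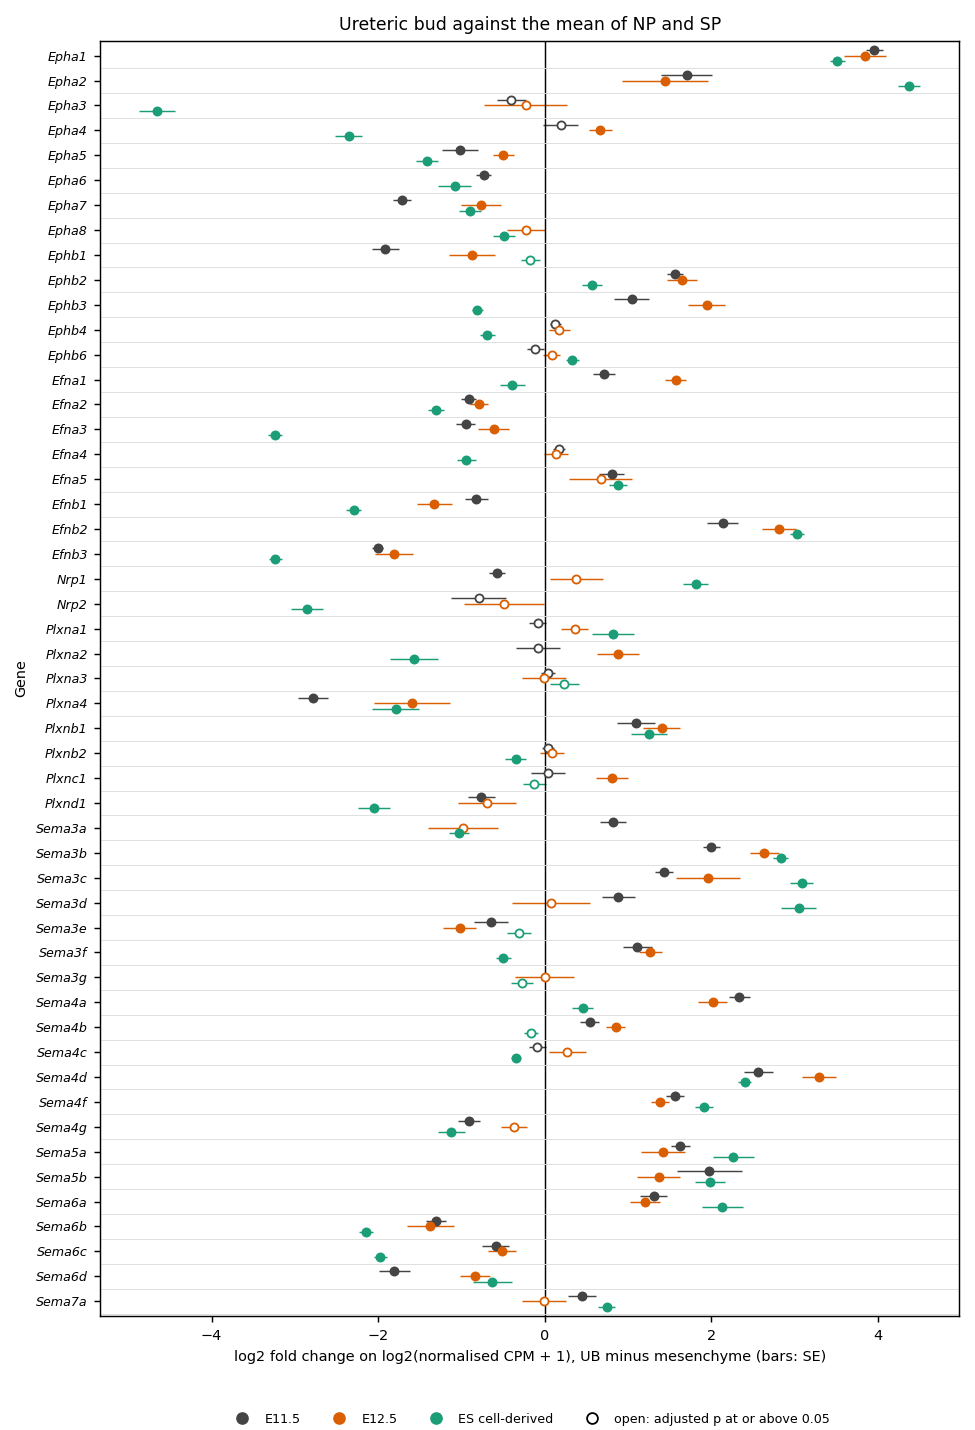
Log2 fold change of each tested member, UB minus the mean of NP and SP, on log2(normalised CPM + 1), at E11.5, E12.5 and among mESC-derived cells (bars are SEs; open symbols have an adjusted p at or above 0.05). *Epha1*, *Efnb2* and *Sema4d* lie to the right in all 3 sources and *Efnb3* and *Plxna4* to the left, while *Nrp1* changes side between E11.5 and mESC-derived cells.

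Promoters are shown for 3 of the members that were UB-high in all sources (*Epha1*, *Efnb2*, *Sema4f*), which differ in base composition, and for *Epha3*, which was high in iSP. The RefSeq start of each was the annotated start of the gene. These are the 250 bases before the start (RefSeq, GRCm38.p6), 5′ to 3′ on the gene's strand, which is the minus strand for all 4. Capitals mark CACCTG (the E-box bound by SNAI and ZEB factors), GGGCGG (the GC box) and TATAAA (the TATA box), each searched on both strands; none of the marked runs overlap in these 4.
*Epha1*, chr6:42373269-42373518: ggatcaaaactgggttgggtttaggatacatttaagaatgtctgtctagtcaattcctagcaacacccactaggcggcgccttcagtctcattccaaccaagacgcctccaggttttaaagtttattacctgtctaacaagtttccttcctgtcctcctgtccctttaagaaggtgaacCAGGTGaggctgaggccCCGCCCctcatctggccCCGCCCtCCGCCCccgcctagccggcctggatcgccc
*Efnb2*, chr8:8661243-8661492: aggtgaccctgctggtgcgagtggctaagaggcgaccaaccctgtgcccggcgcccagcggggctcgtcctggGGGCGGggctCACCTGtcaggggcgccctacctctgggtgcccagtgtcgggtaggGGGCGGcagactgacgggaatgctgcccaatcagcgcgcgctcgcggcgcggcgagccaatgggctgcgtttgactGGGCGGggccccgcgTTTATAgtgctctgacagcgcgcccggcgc
*Sema4f*, chr6:82939770-82940019: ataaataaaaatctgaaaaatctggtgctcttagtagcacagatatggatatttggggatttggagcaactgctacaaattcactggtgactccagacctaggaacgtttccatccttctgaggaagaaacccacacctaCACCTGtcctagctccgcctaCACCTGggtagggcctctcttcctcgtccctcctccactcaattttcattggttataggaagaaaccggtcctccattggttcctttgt
*Epha3*, chr16:63864176-63864425: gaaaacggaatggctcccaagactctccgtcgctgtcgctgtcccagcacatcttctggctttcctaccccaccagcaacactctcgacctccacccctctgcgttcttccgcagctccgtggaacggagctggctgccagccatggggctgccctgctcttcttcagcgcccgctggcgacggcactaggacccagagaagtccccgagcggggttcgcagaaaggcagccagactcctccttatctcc

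The promoters of *Epha1*, *Efnb2* and *Sema4f* each held CACCTG, and that of *Epha3* held none of the runs searched. The 3 were not typical of the UB-high members: of the 13, 11 had a RefSeq promoter, and 4 of these 11 held CACCTG (*Ephb2* besides the 3 shown) while 7 did not. Over the 46 members with a RefSeq promoter, 6 (13.0%) held CACCTG, against 17.2% of all 32851 promoter entries. GGGCGG was in 36 of 46 (78.3%) against 32.7% of all entries, and TATAAA in 1, *Efnb2*, against 12.4%. The grainyhead-like motif AACCGGTT, also searched on both strands, was in none of the 46 and in 0.116% of all entries. The GC content of the 250 bases had a median of 64.4% over the members and of 52.4% over all entries, which include several starts of a gene and non-coding genes.

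The second question was what separates the mesenchymal populations, NP and SP. At E11.5, 39 of 49 members were called, 9 higher and 30 lower in NP than in SP; 47.1% of all genes were called, 23.8% lower in NP. The median log2 fold change of the members was -0.68, against 0.013 over all genes. None of the 12 Eph receptors tested was called higher in NP and 10 were called lower. Of these, *Epha5* and *Epha6* were under 1 in every E11.5 NP library and passed the filter through SP alone, like *Sema3e* and *Sema4a*. At E12.5, 30 of 50 were called (9 higher and 21 lower, 38.0% of all genes), and 29 of 49 without the first NP and SP libraries (42.4% of all genes), an alternative chosen after the values had been seen. Between iNP and iSP the split was the other way, with 34 of 51 called, 20 higher and 14 lower in iNP (31.0% of all genes). By their markers the cell types were nearer to each other there. Nephron progenitor markers summed to 665 to 935 in iNP and 455 to 505 in iSP, against 1485 to 1650 and 236 to 288 in E11.5 NP and SP. All 8 had a mean of at least 1 in each group. Stromal progenitor markers summed to 267 to 304 and 863 to 970.2, against 257 to 265 and 1118 to 1599, with all 6 at such a mean. Their part in the split was not tested. Of the 20 semaphorins tested there, 12 were higher in iNP and 1 lower, against 7 higher and 11 lower of 19 at E11.5. Of 48 members tested in all sources, *Efna1*, *Plxna4*, *Sema3b*, *Sema3f*, *Sema4b* and *Sema4d* were higher in NP in each, and *Efna3*, *Efnb3*, *Epha3*, *Epha7*, *Ephb3*, *Plxna2*, *Plxnb2*, *Plxnc1* and *Sema3a* lower in each. A further 8 were called in opposite directions in different sources. Over all genes tested in the 3 sources these shares were 5.84% higher, 6.28% lower and 5.50% in opposite directions. Without the first E12.5 NP and SP libraries the members came to 6, 9 and 7 of 47, with *Ephb4* in place of *Plxna2* among those lower in each. The shares of all genes were not counted for that setting.

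*Epha3* and *Epha7*, receptors for ephrin-A ligands, were, with *Ephb3*, the Eph genes called lower in NP in all 3 sources. *Epha3* was at 1.75, 0.403, 0.597 and 0.615 in E11.5 NP and 19.2, 21.4, 13.5 and 19.2 in E11.5 SP, a log2 fold change of -3.43 (SE 0.20, limma adjusted p = 1.7e-08), and at 27.3, 8.89, 17.1 and 15.9 in iNP and 121, 120.3, 132 and 122 in iSP, -2.87 (SE 0.24, limma adjusted p = 1.3e-06). *Epha7* was at 29.4, 36.5, 29.0 and 31.4 in E11.5 NP and 112, 154, 153 and 163 in E11.5 SP, a log2 fold change of -2.16 (SE 0.13, limma adjusted p = 1.7e-08). *Efna1*, the preferred ligand of EphA2, was the one ephrin called higher in NP in all 3 sources. It was at 41.1, 29.9, 31.2 and 32.1 in E12.5 NP and 2.22, 2.92, 2.63 and 3.40 in E12.5 SP, with log2 fold changes of 2.22 (SE 0.15, limma adjusted p = 8.0e-08) at E11.5, 3.19 (SE 0.15, limma adjusted p = 2.1e-08) at E12.5 and 1.51 (SE 0.18, limma adjusted p = 2.3e-05) between iNP and iSP.

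Of the plexin-A genes, *Plxna1* and *Plxna3* were not called between NP and SP in any source, while *Plxna4* and *Plxna2* were called in opposite directions in each. *Plxna4* was at 21.98, 19.0, 13.3 and 25.2 in E11.5 NP and 3.67, 5.28, 4.45 and 2.39 in E11.5 SP (log2 fold change 2.08, SE 0.21, limma adjusted p = 2.9e-06), and at 52.3, 21.5, 76.8 and 75.2 in iNP and 6.14, 6.73, 9.12 and 6.89 in iSP (log2 fold change 2.66, SE 0.32, limma adjusted p = 3.1e-05). *Plxna2* had the opposite order, with 30.4, 27.5, 23.0 and 22.4 in E11.5 NP and 172, 237, 149 and 59.4 in E11.5 SP (log2 fold change -2.39, SE 0.30, limma adjusted p = 2.4e-05), and 56.1, 19.1, 53.0 and 53.6 in iNP and 156, 204, 198 and 180.0 in iSP (log2 fold change -2.11, SE 0.33, limma adjusted p = 0.00028). The groups did not overlap for either gene at E11.5 or among mESC-derived cells. *Sema3f*, a repellent ligand that acts through neuropilin-2, was at 157, 138, 120.2 and 141 in E11.5 NP and 75.1, 73.8, 46.2 and 34.2 in E11.5 SP, a log2 fold change of 1.33 (SE 0.20, limma adjusted p = 0.00012). *Sema3a*, the repellent that acts through neuropilin-1, was the reverse, at 1.60, 1.54, 1.36 and 2.19 in E11.5 NP and 11.1, 9.39, 7.47 and 16.4 in E11.5 SP, a log2 fold change of -2.13 (SE 0.18, limma adjusted p = 6.3e-07). At E12.5 the values of *Sema3a* were 3.57, 9.42, 9.85 and 8.05 in NP and 18.9, 73.1, 56.3 and 70.8 in SP, with the lowest of each in the first library. *Sema6a* was at 44.1, 31.6, 31.8 and 30.4 in E11.5 NP and 298, 403, 270.2 and 185 in E11.5 SP (log2 fold change -2.99, SE 0.19, limma adjusted p = 3.2e-08). In mESC-derived cells the values of *Sema6a*, 67.4, 26.7, 67.5 and 65.2 in iNP and 49.96, 76.3, 72.8 and 51.9 in iSP, overlapped.

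*Sema3c*, *Sema5a*, *Sema6d*, *Sema7a* and *Epha5* were lower in NP at both ages and higher in iNP than in iSP, all of them called. *Epha5* reached 1 normalised CPM in no NP library of either age and in no iSP library. It passed the filter through SP alone at both ages and through iNP alone among mESC-derived cells, so its directions were fixed by the filter. Without the first E12.5 NP and SP libraries, *Epha5* did not pass the filter at E12.5 and the 4 semaphorins were still called. *Sema5a*, a membrane semaphorin with thrombospondin repeats, was at 13.6, 14.9, 14.5 and 22.7 in E11.5 NP and 75.4, 72.8, 64.0 and 71.5 in E11.5 SP, a log2 fold change of -2.07 (SE 0.13, limma adjusted p = 4.7e-08). In iNP it was at 71.7, 29.4, 95.7 and 93.6 and in iSP at 20.0, 18.3, 20.2 and 20.1, a log2 fold change of 1.70 (SE 0.29, limma adjusted p = 0.00048). *Sema3c* gave -1.50 (SE 0.12, limma adjusted p = 3.4e-07) at E11.5 and 1.31 (SE 0.16, limma adjusted p = 2.8e-05) between iNP and iSP. *Epha5*, a low gene, was at 4.60, 3.38, 1.59 and 1.22 in E11.5 SP and at most 0.810 in E11.5 NP, but at 6.58, 3.80, 5.95 and 6.96 in iNP and at most 0.811 in iSP. *Plxnd1*, an endothelial plexin, was higher in iNP than in iSP (209.6, 114.8, 224 and 181 against 70.6, 105, 80.9 and 68.4; log2 fold change 1.13, SE 0.22, limma adjusted p = 0.0014). Endothelial markers summed to 72.1 to 127 in iNP and 50.6 to 78.4 in iSP, and their part in the levels of *Plxnd1* was not tested.

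**Figure D3:**
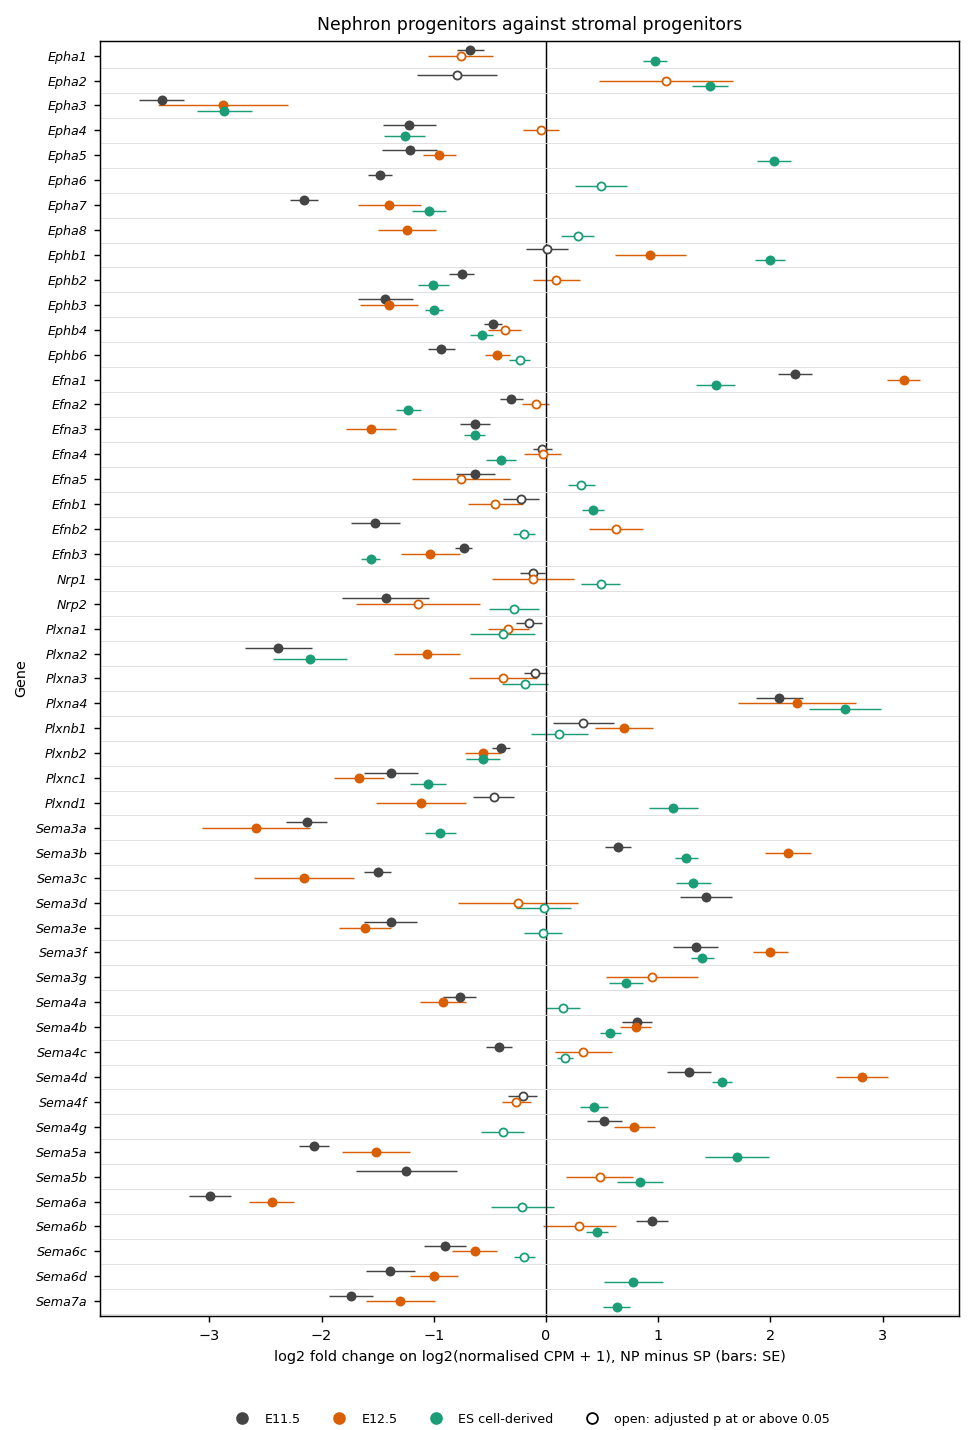
Log2 fold change of each tested member, NP minus SP, on log2(normalised CPM + 1), in the 3 sources (bars are SEs; open symbols have an adjusted p at or above 0.05). At E11.5 most filled symbols lie to the left (30 lower and 9 higher in NP), while between iNP and iSP 20 lie to the right and 14 to the left.

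The central comparison of the study set each mESC-derived population beside its ex-fetu counterpart. Between eUB and E11.5 UB, 30 of 47 members were called, 14 higher and 16 lower in eUB, where 60.5% of all 13956 genes tested were called. The medians of the members and of all genes were 0.0015 and 0.025. Early response genes were higher in eUB, with *Fos* at 471 to 681 against 47.6 to 87.1 in E11.5 UB and *Egr1* at 1114 to 1922 against 233 to 414. Their part in the calls was not tested. Of the 8 ephrins, 1 was higher and 5 lower, where 28.5% of all genes were called lower in eUB. *Efna3* was at 23.0, 24.8, 21.3 and 24.6 in E11.5 UB and 5.20, 4.37, 3.61 and 3.97 in eUB, a log2 fold change of -2.22 (SE 0.11, limma adjusted p = 2.8e-07), and -2.38 (SE 0.15, limma adjusted p = 1.0e-05) against E12.5 UB. It shares 14.1% of its exonic bases with an antisense gene, *Gm15998*. *Efna1* was at 27.4, 30.2, 25.7 and 29.7 in E11.5 UB and 9.50, 13.0, 10.1 and 9.53 in eUB, a log2 fold change of -1.35 (SE 0.11, limma adjusted p = 5.7e-06). No library of eUB reached the range of E11.5 UB for either ephrin. *Efnb2* was the exception, with 769 ± 68.6 in eUB against 417 ± 23.4 in E11.5 UB, a called rise under 1 on the log2 scale; against E12.5 UB the rise was 1.02 (SE 0.15, limma adjusted p = 0.00067).

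Among receptors, *Epha4*, which binds ephrins of both classes, fell from 143, 135, 139 and 133 in E11.5 UB to 32.1, 40.2, 37.9 and 36.4 in eUB, a log2 fold change of -1.88 (SE 0.08, limma adjusted p = 9.8e-08), and of -1.48 (SE 0.093, limma adjusted p = 9.3e-06) against E12.5 UB. *Ephb1* rose from 0.775, 0.523, 0.718 and 1.35 to 10.6, 12.2, 12.2 and 10.98, a log2 fold change of 2.78 (SE 0.14, limma adjusted p = 2.9e-07). *Plxna4* was under 1 in every E11.5 UB library and at a mean of 5.02 in eUB, and passed the filter through eUB alone. Of the semaphorins, 6 were higher and 6 lower of 18. *Sema4f*, a membrane semaphorin of neural cells, was at 9.07, 10.1, 10.1 and 7.79 in E11.5 UB and 32.4, 27.5, 25.5 and 28.0 in eUB, a log2 fold change of 1.52 (SE 0.11, limma adjusted p = 2.6e-06). *Sema3a* was at 8.49, 8.48, 9.41 and 8.996 in E11.5 UB and 27.0, 30.8, 29.9 and 27.4 in eUB, a log2 fold change of 1.60 (SE 0.085, limma adjusted p = 3.5e-07). Lower in eUB were *Sema3f*, at 202, 190.5, 170.1 and 197 in E11.5 UB and 76.4, 88.1, 81.9 and 82.5 in eUB (log2 fold change -1.20, SE 0.077, limma adjusted p = 1.2e-06), *Sema4a*, at 9.30, 6.95, 7.18 and 8.36 and 3.34, 4.83, 2.75 and 2.83 (log2 fold change -1.03, SE 0.16, limma adjusted p = 0.00035), and *Sema5b* (log2 fold change -1.32, SE 0.17, limma adjusted p = 0.00012). *Sema4a*, a gene of immune cells as well, moved with the macrophage markers given above, and their part in its level was not tested. Against E12.5 UB, *Sema5b* was not called (11.3, 5.44, 14.9 and 9.42 in E12.5 UB and 10.4, 14.4, 14.1 and 14.7 in eUB). In all, 28 of 48 members were called against E12.5 UB (10 higher and 18 lower, 44.4% of all genes), and 38 without the first E12.5 UB library (14 higher and 24 lower, 51.5% of all genes).

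Between iNP and E11.5 NP, 34 of 50 members were called, and the calls were mostly rises: 27 were higher and 7 lower in iNP. Over all 14064 genes tested 64.7% were called, 35.5% higher. The median log2 fold change was 0.64 over the members and 0.074 over all genes. Of the Eph receptors, 10 of 12 were higher and 1 lower, and of the semaphorins 11 of 20 were higher and 3 lower. These rises include *Epha5*, *Epha8*, *Sema3e* and *Sema4a*, which were under 1 in every E11.5 NP library, passed the filter through iNP alone and so had to be higher. Without the third iNP library they were not tested, and 22 of 46 members were called higher and 7 lower, beside 59.4% of all genes called in either direction. *Epha3* was at 1.75, 0.403, 0.597 and 0.615 in E11.5 NP and 27.3, 8.89, 17.1 and 15.9 in iNP, a log2 fold change of 3.27 (SE 0.31, limma adjusted p = 1.5e-05). *Ephb1* (log2 fold change 2.03, SE 0.18, limma adjusted p = 9.4e-06) and *Ephb3* (log2 fold change 1.90, SE 0.25, limma adjusted p = 0.00011) were higher too. *Ephb3*, an EphB receptor of epithelial borders, was at 22.2, 11.9, 13.4 and 7.59 in E11.5 NP and 52.1, 52.0, 52.7 and 46.4 in iNP. The one Eph receptor that fell was *Epha2*, from 137, 45.4, 55.0 and 46.0 to 19.0, 14.9, 18.9 and 17.9, a log2 fold change of -1.79 (SE 0.31, limma adjusted p = 0.00068), with every iNP library under every E11.5 NP library. *Atf3*, a stress-induced transcription factor gene, lay between 57.7 and 100.1 in E11.5 NP and between 3.08 and 4.46 in iNP, with its highest value, like that of *Epha2*, in the first library. *Jun* was lower in iNP too (126 to 158 against 232 to 287). *Fos* (283 to 370 against 52.7 to 85.9) and *Egr1* (200 to 354 against 47.3 to 90.2) were higher in iNP. The relation of these genes to *Epha2* was not tested. Among the ephrins, *Efnb1* rose from 61.9, 83.4, 68.7 and 97.3 to 238, 213, 259 and 223, a log2 fold change of 1.59 (SE 0.14, limma adjusted p = 9.5e-06).

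The neuropilins moved in opposite directions in iNP. *Nrp1* fell from 308, 244, 239 and 233 to 108, 65.6, 111 and 104, a log2 fold change of -1.41 (SE 0.17, limma adjusted p = 7.2e-05). *Nrp2* rose from 17.5, 10.1, 12.1 and 8.51 to 116, 53.0, 96.9 and 86.3, a log2 fold change of 2.76 (SE 0.26, limma adjusted p = 1.3e-05), and against E12.5 NP 3.004 (SE 0.27, limma adjusted p = 1.7e-05). Neither gene overlapped between iNP and E11.5 NP. *Plxnd1* rose from 71.9, 40.1, 39.5 and 39.1 to 209.6, 114.8, 224 and 181 (log2 fold change 1.92, SE 0.25, limma adjusted p = 0.00010), beside the endothelial markers given above, and *Kdr* (VEGF receptor 2), one of those markers, had means of 6.49 in E11.5 NP and 30.0 in iNP. Of the secreted semaphorins, *Sema3a* rose from 1.60, 1.54, 1.36 and 2.19 to 50.6, 30.2, 48.4 and 45.2, the largest change of any member in this comparison, 4.04 (SE 0.17, limma adjusted p = 1.2e-07). *Sema3d* fell from 45.8, 51.4, 45.8 and 60.6 to 14.8, 5.25, 14.0 and 13.7, a log2 fold change of -2.09 (SE 0.27, limma adjusted p = 0.00012). *Sema5a* (log2 fold change 1.97, SE 0.34, limma adjusted p = 0.00066), *Sema6c* (log2 fold change 1.74, SE 0.16, limma adjusted p = 1.2e-05) and *Sema4f* (log2 fold change 1.49, SE 0.14, limma adjusted p = 1.2e-05) rose. Against E12.5 NP, 26 of 50 were called (21 higher and 5 lower, 44.3% of all genes), and 29 without the first E12.5 NP library (21 higher and 8 lower, 43.4% of all genes). Without the third iNP library this count was 17, with 34.5% of all genes called. The second iNP library was the lowest of its group for all 8 plexins and for 6 of 8 ephrins. It was not alone in this: the first eUB library and the fourth E11.5 SP library were the lowest of their groups for all 8 plexins as well. The first iSP library was the lowest of its group for 7 of them.

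Between iSP and E11.5 SP, 34 of 51 members were called, 18 higher and 16 lower (67.6% of all 13916 genes), with medians of 0.056 over the members and 0.037 over all genes. The largest change was the fall of *Epha2*, which was at 167, 151, 79.9 and 73.1 in E11.5 SP and 6.52, 6.02, 5.76 and 4.80 in iSP, a log2 fold change of -4.04 (SE 0.26, limma adjusted p = 1.4e-06). *Atf3* lay between 142 and 214 in E11.5 SP and between 2.47 and 3.21 in iSP, with its higher values, like those of *Epha2*, in the first and second E11.5 libraries. *Jun* was lower in iSP too (187 to 256 against 505 to 697). *Fos* was higher in iSP (415 to 508 against 175 to 248), and *Egr1* overlapped (428 to 609 against 299 to 433). The relation of these genes to *Epha2* was not tested. *Sema6a* was at 298, 403, 270.2 and 185 in E11.5 SP and 49.96, 76.3, 72.8 and 51.9 in iSP, a log2 fold change of -2.16 (SE 0.23, limma adjusted p = 2.9e-05). *Sema3c* was at 74.7, 81.0, 99.8 and 113 in E11.5 SP and 18.4, 18.3, 20.0 and 22.9 in iSP, a log2 fold change of -2.14 (SE 0.14, limma adjusted p = 1.4e-06). *Sema5a* (log2 fold change -1.80, SE 0.082, limma adjusted p = 2.1e-07), *Sema5b* (log2 fold change -2.37, SE 0.46, limma adjusted p = 0.0013) and *Sema6d* (log2 fold change -1.96, SE 0.23, limma adjusted p = 5.8e-05) fell too. Ureteric bud markers summed to 370.4 to 615 in E11.5 SP, 171 to 303 in E12.5 SP, 172 to 179.7 in iSP and 4439 to 4825 in E11.5 UB, with all 10 markers at a mean of at least 1 in E11.5 SP and 8 of 10 in iSP. *Sox9* and *Wnt11* made up most of that sum in E11.5 SP, at means of 275 and 120, and *Epcam* and *Ret*, used in the sort, were at 15.0 and 19.6. Their part in these falls was not tested. Against E12.5 SP, *Sema6a* (log2 fold change -1.59, SE 0.16, limma adjusted p = 2.8e-05), *Sema3c* (log2 fold change -2.65, SE 0.40, limma adjusted p = 0.00033) and *Sema5a* (log2 fold change -2.03, SE 0.30, limma adjusted p = 0.00027) were lower in iSP as well, while *Sema5b* was not called (means of 2.56 in E12.5 SP and 1.73 in iSP).

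*Nrp1* fell and *Nrp2* rose in iSP as well. *Nrp1* was at 268, 286, 318 and 239 in E11.5 SP and 58.8, 81.6, 79.9 and 54.8 in iSP, a log2 fold change of -2.01 (SE 0.15, limma adjusted p = 2.9e-06). *Nrp2* was at 59.3, 48.9, 20.7 and 19.6 in E11.5 SP and 110.3, 104, 103 and 97.0 in iSP, a log2 fold change of 1.62 (SE 0.33, limma adjusted p = 0.0017). The highest rises in iSP were those of *Sema3a*, from 11.1, 9.39, 7.47 and 16.4 to 81.6, 78.3, 82.4 and 90.9 (log2 fold change 2.85, SE 0.19, limma adjusted p = 1.7e-06), and of *Epha3*, from 19.2, 21.4, 13.5 and 19.2 to 121, 120.3, 132 and 122 (log2 fold change 2.71, SE 0.13, limma adjusted p = 2.7e-07). *Ephb2* (log2 fold change 1.24, SE 0.13, limma adjusted p = 2.3e-05) and *Ephb3* (log2 fold change 1.46, SE 0.16, limma adjusted p = 3.0e-05) rose, and *Sema3b* (log2 fold change -1.40, SE 0.13, limma adjusted p = 1.1e-05) and *Sema7a* (log2 fold change -1.44, SE 0.14, limma adjusted p = 1.8e-05) fell. Against E12.5 SP, 38 of 50 members were called (21 higher and 17 lower, 62.1% of all genes), and 41 of 49 without the first E12.5 SP library (23 higher and 18 lower, 69.9% of all genes). *Epha4* was called, at 65.8, 68.3, 71.6 and 59.4 in E12.5 SP and 282, 299, 298 and 305 in iSP (log2 fold change 2.15, SE 0.081, limma adjusted p = 7.0e-08). *Sema3a* was not called against E12.5 SP, where its values (18.9, 73.1, 56.3 and 70.8) lay below those of iSP in every library, and was called without the first E12.5 SP library, with a log2 fold change of 0.32 (SE 0.10, limma adjusted p = 0.014). *Sema3b*, at means of 1.98 in E12.5 SP and 1.87 in iSP, was not called there either way. *Epha2* gave -2.37 (SE 0.51, limma adjusted p = 0.0027) against E12.5 SP, and -1.75 (SE 0.11, limma adjusted p = 3.4e-07) without the first E12.5 SP library.

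**Figure D4:**
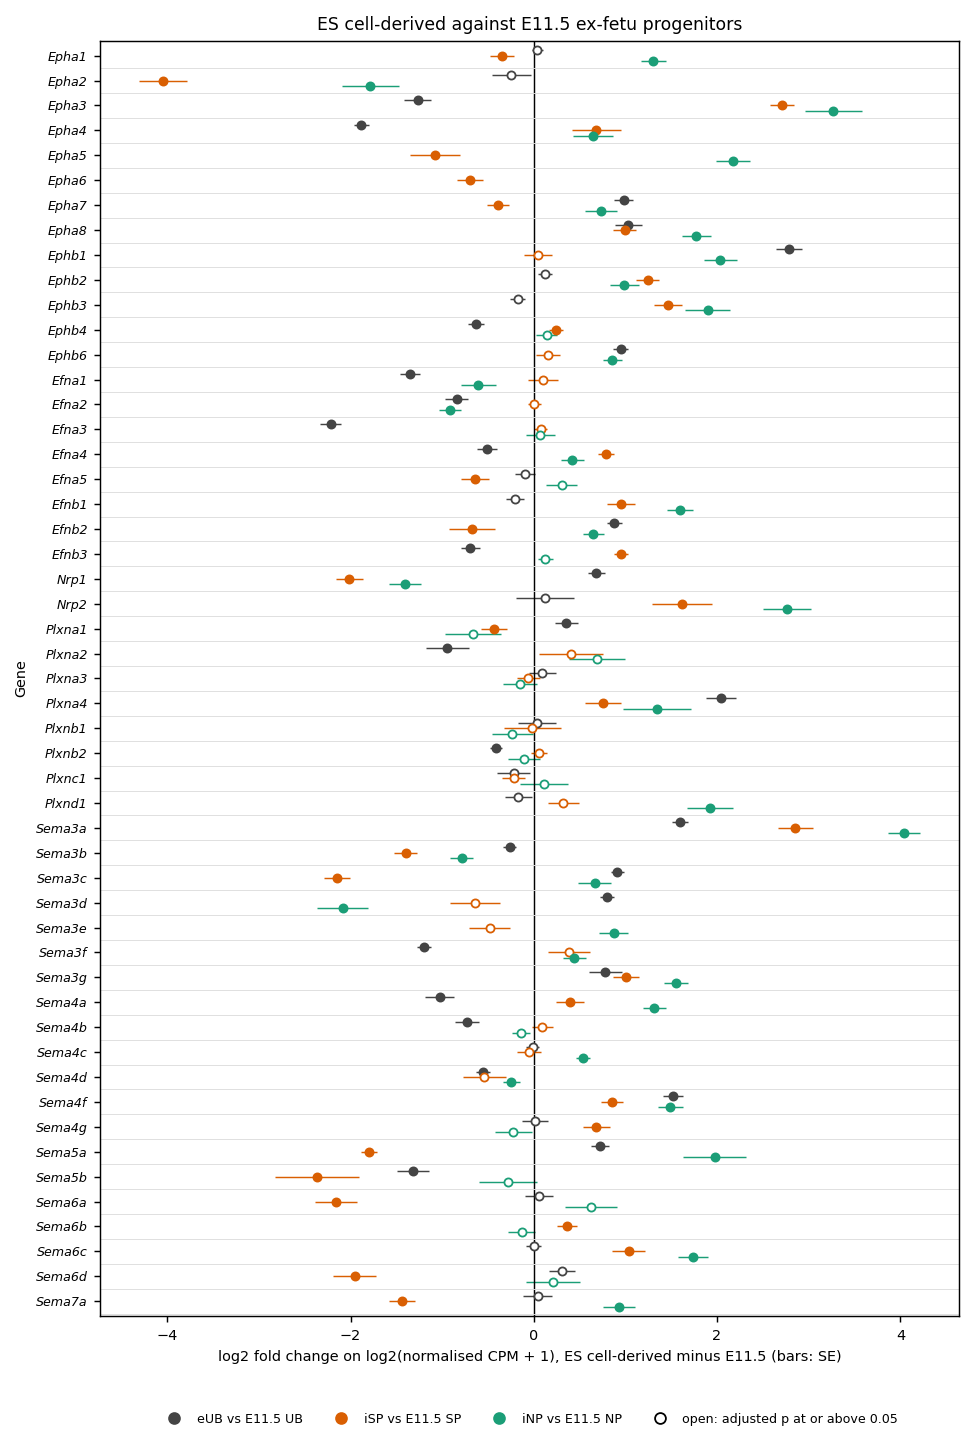
Log2 fold change of each tested member, mESC-derived minus E11.5 ex-fetu cells, on log2(normalised CPM + 1), for UB, SP and NP (bars are SEs; open symbols have an adjusted p at or above 0.05). *Sema3a* lies to the right in all 3 cell types; *Epha3*, *Sema5a* and *Nrp1* lie on both sides of 0.

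The 3 cell types were then set side by side. Of 47 tested in all 3 comparisons with E11.5, *Epha8*, *Plxna4*, *Sema3a*, *Sema3g* and *Sema4f* were called higher in each mESC-derived population, *Sema3b* was called lower in each, and 16 were called in opposite directions in different cell types. Of all genes tested in the 3 comparisons, 14.8% were called higher in each, 12.7% lower in each and 13.1% in opposite directions. *Epha8* and *Plxna4* reached 1 in no E11.5 UB library, and *Epha8* and *Sema3g* in no E11.5 SP library, so that they passed the filter there through the mESC-derived cells alone. Against E12.5 cells, *Epha7*, *Ephb1*, *Ephb6* and *Sema4f* were called higher in each, 0 of 48 lower in each and 19 in opposite directions (8.25, 5.85 and 10.4% of all genes). Only *Sema4f* was among the members higher in each against both ages. Without the first E12.5 library of each cell type these counts were 8, 1 and 22 of 47, and the shares of all genes were not counted for that setting. In that setting *Sema3a*, *Sema3g* and *Sema4f* were higher in each against both ages. *Sema3g* reached 1 in no E12.5 SP library and was at 0.284 to 0.686 in the E12.5 UB libraries kept. It passed the filter there through iSP and eUB alone and so had to be higher. *Epha8* and *Sema3g* are low genes, with no group mean above 3.18 and 4.15, both in iNP. The difference between the mESC against E11.5 effects was then tested directly. It was called for 42 of 51 members between UB and SP (47.4% of all genes), for 34 of 50 between UB and NP (47.1%) and for 30 of 51 between SP and NP (29.3%). Of the 30 called between SP and NP, 26 had a lower effect in SP and 4 a higher, where 17.4% of all genes were called lower. Of the 8 ephrins 3 were lower and 2 higher. *Sema5a* differed there by -3.77 (SE 0.38, limma adjusted p = 1.5e-06), and *Epha5* by -3.25 (SE 0.35, limma adjusted p = 2.7e-06), and both fell in iSP and rose in iNP. The filter fixed both directions of *Epha5*, which reached 1 in no iSP library and in no E11.5 NP library. The size for low genes depends on the scale: with edgeR *Epha5* differed by -5.62 and *Epha6* by -6.09, where *Epha6* was at -1.97 here. *Epha3* differed between UB and NP by -4.54 (SE 0.37, limma adjusted p = 5.1e-08) and between UB and SP by -3.98 (SE 0.20, limma adjusted p = 3.2e-10). For *Nrp1* the effect differed between UB and SP by 2.695 (SE 0.18, limma adjusted p = 7.6e-09) and between UB and NP by 2.09 (SE 0.20, limma adjusted p = 4.3e-07), and for *Nrp2* between UB and NP by -2.64 (SE 0.44, limma adjusted p = 0.00012). *Sema3c* differed between UB and SP by 3.06 (SE 0.16, limma adjusted p = 3.7e-10).

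**Figure D5:**
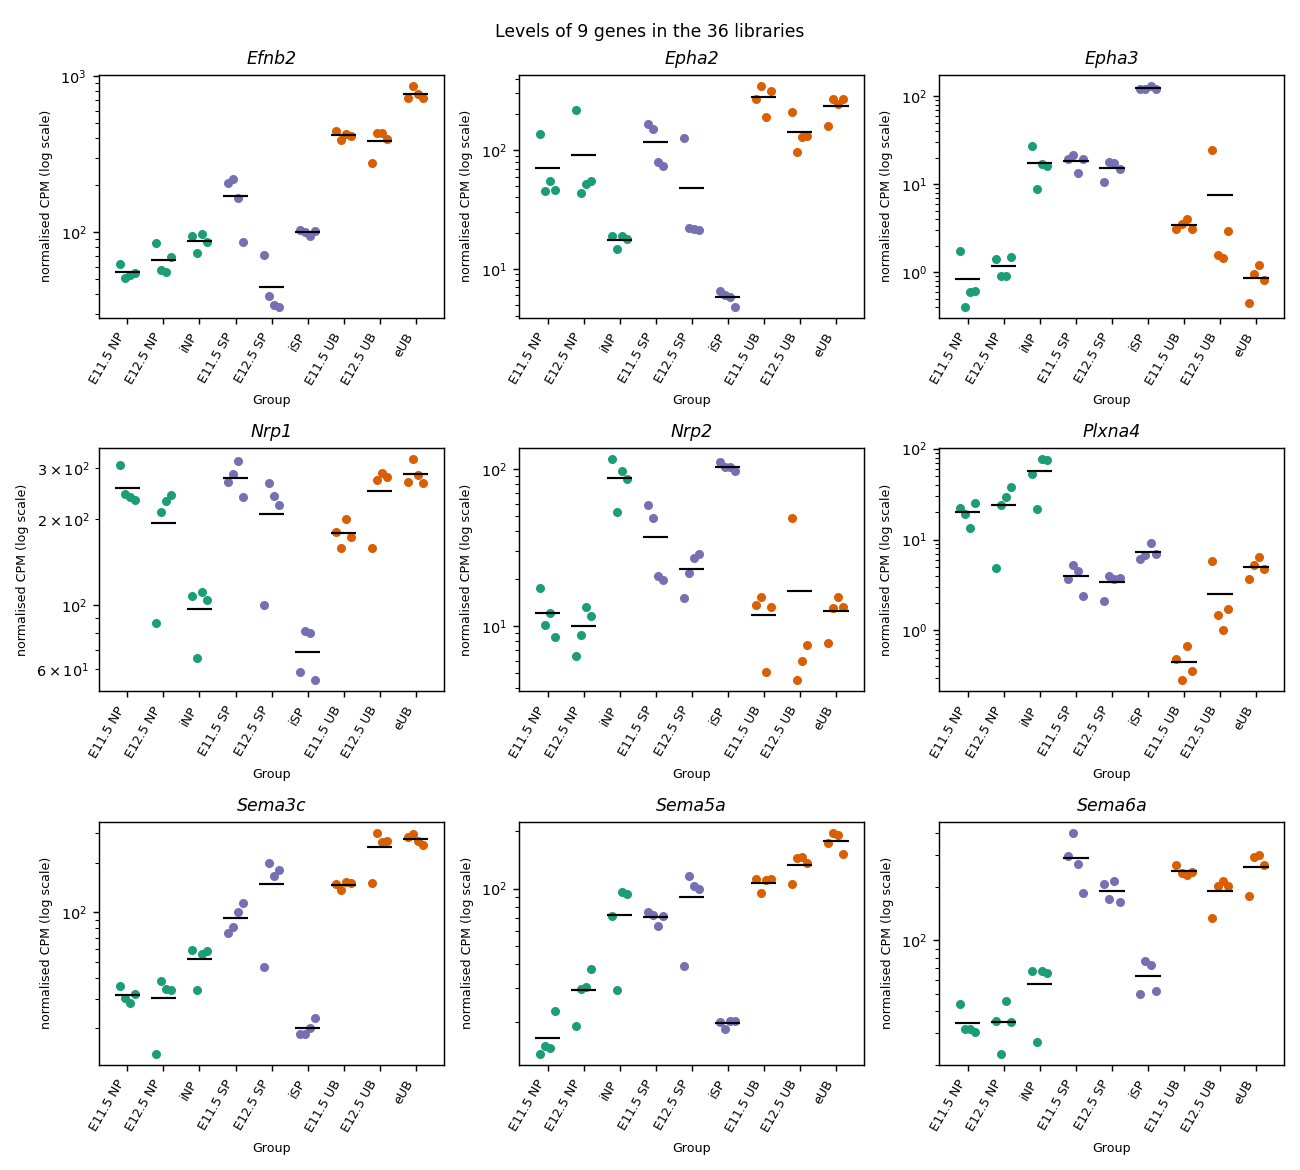
Normalised CPM (log scale) of 9 members in the 36 libraries, coloured by cell type (NP, SP, UB); points are libraries in replicate order and lines are group means. *Efnb2* separates all UB libraries from the rest, *Nrp1* is lower and *Nrp2* higher in iNP and iSP than in ex-fetu NP and SP of E11.5, and the first E12.5 libraries stand away from the other 3 for *Epha2*, *Nrp1* and *Sema3c*.

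The embryonic ages were compared last. In UB, 17 of 46 members were called between E12.5 and E11.5 (12 higher and 5 lower at E12.5, 26.5% of all genes), and 34 without the first E12.5 UB library (25 higher and 9 lower, 44.0% of all genes). *Sema5b* was at 32.5, 35.6, 47.4 and 26.3 in E11.5 UB and 11.3, 5.44, 14.9 and 9.42 in E12.5 UB, a log2 fold change of -1.74 (SE 0.27, limma adjusted p = 0.0024), and -1.80 (SE 0.25, limma adjusted p = 0.00011) without that library. *Plxnc1*, a receptor for the membrane-anchored semaphorin 7A, was at 6.26, 6.07, 4.99 and 10.03 in E11.5 UB and 9.05, 16.1, 13.8 and 13.3 in E12.5 UB, where the first library was again the lowest. In SP, 15 of 50 were called (5 higher and 10 lower, 8.52% of all genes), and 26 without the first E12.5 SP library (13 higher and 13 lower, 21.5% of all genes). *Efnb2* was at 207, 219, 165 and 86.7 in E11.5 SP and 71.5, 38.7, 34.2 and 33.2 in E12.5 SP, a log2 fold change of -1.90 (SE 0.32, limma adjusted p = 0.0088). The ureteric bud markers given above were lower in E12.5 SP as well, and erythroid markers summed to 44.2 to 1149 in E11.5 SP and 249 to 2399 in E12.5 SP. Their part in this change was not tested. *Sema3a* rose from 11.1, 9.39, 7.47 and 16.4 to 18.9, 73.1, 56.3 and 70.8, a log2 fold change of 2.09 (SE 0.40, limma adjusted p = 0.014), and 2.53 (SE 0.23, limma adjusted p = 0.00048) without the first library. *Efnb1* rose by 1.182 (SE 0.22, limma adjusted p = 0.012) and *Epha4* changed by -1.46 (SE 0.27, limma adjusted p = 0.012). *Epha2* was at 126, 22.2, 21.6 and 21.3 in E12.5 SP: it was not called with all libraries, and its log2 fold change was -2.29 (SE 0.29, limma adjusted p = 0.0016) without the first. In NP, 4 of 45 were called (3 higher and 1 lower, 6.34% of all genes), and 11 without the first E12.5 NP library (9 higher and 2 lower, 17.0% of all genes). *Sema3a* was again the member that rose most, from 1.60, 1.54, 1.36 and 2.19 to 3.57, 9.42, 9.85 and 8.05, a log2 fold change of 1.64 (SE 0.26, limma adjusted p = 0.010).

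Molecules that act with these families were counted from a list of 52 partners (adaptors, kinases and guanine nucleotide exchange factors of Eph receptors, CRMP and MICAL proteins of semaphorin signalling, and plexin co-receptors). Between UB and mesenchyme at E11.5, 17 of 52 were higher in UB and 21 lower, beside 56.4% of all genes called. *L1cam*, an adhesion molecule that partners neuropilin-1, was at 101 in E11.5 UB and 2.26 in the mesenchyme, a log2 fold change of 5.07 (SE 0.26, limma adjusted p = 9.1e-10), and the exchange factor gene *Vav3*, which acts below Eph receptors, was among the highest in UB at E12.5 (log2 fold change 3.50, SE 0.32, limma adjusted p = 1.7e-06) and among mESC-derived cells (log2 fold change 3.55, SE 0.11, limma adjusted p = 1.0e-11). The CRMP genes, which relay semaphorin signals to microtubules, were split: *Dpysl5* was higher in E11.5 UB (log2 fold change 3.36, SE 0.10, limma adjusted p = 7.9e-12) and *Dpysl4* (log2 fold change -3.58, SE 0.11, limma adjusted p = 6.6e-12) and *Crmp1* (log2 fold change -3.45, SE 0.13, limma adjusted p = 6.7e-11) lower. Between NP and SP at E11.5, 9 were higher in NP and 19 lower, beside 47.1% of all genes called, and *Chl1*, another co-receptor of neuropilin-1, was at 3.21 in NP and 46.0 in SP (log2 fold change -3.43, SE 0.23, limma adjusted p = 7.6e-08).

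Set against E11.5 cells, 11 of 48 partners were higher and 17 lower in eUB, 14 of 50 higher and 14 lower in iNP, and 11 of 50 higher and 22 lower in iSP, beside 60.5, 64.7 and 67.6% of all genes called in either direction. Markers of neurons and neural crest summed to 53.1 to 73.5 in iNP, 59.0 to 87.2 in iSP and 32.8 to 40.9 in eUB, against 29.2 to 46.5, 17.5 to 25.5 and 24.7 to 35.4 in E11.5 NP, SP and UB, and their part in the neural members and partners (*Sema4f*, *Sema3a*, *Dpysl5*) was not tested. Against E12.5 cells, 7 of 48 were higher and 16 lower in eUB, 13 of 51 and 5 in iNP, and 9 of 47 and 22 in iSP, beside 44.4, 44.3 and 62.1% of all genes. Between E12.5 and E11.5, 7 were higher and 7 lower of 48 in UB, 1 and 4 of 49 in SP, and 0 and 2 of 50 in NP, beside 26.5, 8.52 and 6.34% of all genes. Between iNP and iSP, 13 of 51 were higher and 9 lower in iNP, beside 31.0% of all genes. *Dpysl5* rose in iNP (log2 fold change 2.702, SE 0.17, limma adjusted p = 1.4e-06) and in iSP (log2 fold change 1.26, SE 0.15, limma adjusted p = 4.8e-05). *Chl1* fell from 46.0 to 4.001 in iSP (log2 fold change -3.17, SE 0.24, limma adjusted p = 3.1e-06), and *Dpysl3* fell there (log2 fold change -2.36, SE 0.069, limma adjusted p = 1.9e-08) while it rose in eUB (log2 fold change 1.69, SE 0.084, limma adjusted p = 2.4e-07). *Erbb2*, a receptor tyrosine kinase that associates with plexin-B proteins, was at 91.0 in eUB and 251 in E11.5 UB (log2 fold change -1.45, SE 0.074, limma adjusted p = 2.8e-07). *Trem2*, a macrophage gene that partners plexin-A1, was at 0 in all 4 eUB libraries and at a mean of 2.53 in E11.5 UB.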

How the data were processed

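RNA of sorted cells had been sequenced with a stranded mRNA kit, and the authors had trimmed the reads with cutadapt and aligned them with STAR; the genome build their methods name is human, although the gene identifiers are those of mouse, and the counting program and its use of strand are not given in the sources used here. The authors deposited a table of normalised CPM (a signal scaled with edgeR's factors, not raw counts) for 22761 genes in 36 libraries, together with their own group means, fold changes and p-values, which were not used. Every value was a whole number of reads within 0.01, so reads and depth (13.0 to 52.5 M reads on genes) could be recovered. Counting error is small at this depth for all but the lowest genes. All sample columns were matched to the samples by title; columns without a sample numbered 0.

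Values were compared as log2(normalised CPM + 1) with limma 3.58.1 (trend, R 4.3.3), only the groups compared being in a fit, for genes that reached 1 normalised CPM in 4 or more libraries, and p-values were adjusted by Benjamini and Hochberg over all genes tested (called under 0.05). UB was compared with the mean of NP and SP. Differences between effects were tested as contrasts in a fit of only the mESC-derived and E11.5 groups of the cell types compared. Fold changes with a p are given for members called with a size of at least 1 on the log2 scale, and for partners the 2 called with the largest size in each direction of a comparison were eligible. A few are also given from fits without a first E12.5 library, among them *Sema3a* with a smaller size (iSP against E12.5 SP). The alternatives were a pseudocount of 0.1, no filter, quantile and upper quartile scaling, all 36 libraries in a fit, the replicate number as a block, edgeR 4.0.16 (quasi-likelihood) on the recovered reads, and each library left out in turn. Levels per kb used the union of exons of the annotation. Only the fit of eUB against E11.5 UB was tested on simulated data, with limma and with edgeR. Tables and plots were made with Python 3.11.15, numpy 2.4.6, pandas 2.3.3 and matplotlib 3.10.9.

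The members, the partner list, the marker lists and the tests were chosen with earlier results of these data known. Libraries numbered alike in the titles were checked for shared deviations from their group means. Only in E12.5 NP and SP were all 4 correlations over 0.1 (0.519 to 0.682), and all 8 samples correlated best with their own number, so the numbers pair the samples there. The main fits held no block, so the E12.5 p-values of NP against SP and of UB against mesenchyme treat these paired samples as independent. Between iNP and iSP the correlations ran from -0.275 to 0.276 and between E11.5 NP and SP from -0.32 to 0.481.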

Additional observations from a re-analysis of the deposited data

Results flagged for a closer look

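In each group of 4 libraries, a member was marked where its highest or lowest library lay far from the other 3 (Dixon's test of the gap against the range). This marked 58 of 428 groups with a mean of at least 1 normalised CPM, where chance marks about 1 in 20, and they gathered in a few libraries. The values below are in normalised CPM, each with the range of the other 3 libraries, for the 43 where those libraries reached 10. The first E12.5 UB library had *Plxnd1* at 118 (above 28.4 to 40.2) and *Sema6c* at 41.8 (above 24.6 to 25.0). It also had *Epha1* at 35.9 (below 79.5 to 87.9), *Nrp1* at 158 (below 273 to 289), *Plxna1* at 221 (below 325 to 336), *Plxnb1* at 224 (below 367 to 384), *Sema4d* at 71.0 (below 129 to 136) and *Sema6a* at 133 (below 203 to 216). The second iNP library had *Epha7* at 35.8 (below 59.8 to 60.3), *Ephb1* at 21.2 (below 29.1 to 29.7), *Ephb2* at 38.6 (below 60.4 to 63.9), *Nrp1* at 65.6 (below 104 to 111), *Plxna2* at 19.1 (below 53.0 to 56.1), *Plxnb2* at 226 (below 381 to 388), *Sema3c* at 33.6 (below 56.3 to 59.0), *Sema3d* at 5.25 (below 13.7 to 14.8) and *Sema6a* at 26.7 (below 65.2 to 67.5). The first E11.5 NP library had *Epha2* at 137 (above 45.4 to 55.0), *Nrp1* at 308 (above 233 to 244), *Plxnb1* at 203 (above 132 to 144), *Plxnb2* at 406 (above 342 to 351), *Plxnd1* at 71.9 (above 39.1 to 40.1) and *Sema6a* at 44.1 (above 30.4 to 31.8). The first E12.5 SP library had *Efnb2* at 71.5 (above 33.2 to 38.7) and *Epha2* at 126 (above 21.3 to 22.2). It also had *Efna3* at 40.5 (below 83.0 to 87.4), *Efna5* at 33.7 (below 88.5 to 93.6), *Efnb1* at 139 (below 229 to 239) and *Ephb2* at 31.8 (below 44.5 to 46.3). The first E12.5 NP library had *Epha2* at 217 (above 43.3 to 55.2). It also had *Epha7* at 14.4 (below 34.4 to 35.7). Single values in other libraries were *Sema5a* at 22.7 (above 13.6 to 14.9) in the fourth E11.5 NP library, *Efna3* at 61.5 (above 56.2 to 56.9) in the fourth E11.5 SP library, *Ephb2* at 35.01 (below 50.6 to 52.4) in the fourth E11.5 SP library and *Efnb1* at 49.0 (above 45.5 to 45.8) in the first E11.5 UB library. There were also *Ephb4* at 264 (above 256 to 257) in the first E11.5 UB library, *Sema5a* at 94.3 (below 111 to 112) in the second E11.5 UB library, *Plxnd1* at 25.6 (below 61.7 to 66.0) in the second E12.5 NP library and *Ephb3* at 46.4 (below 52.0 to 52.7) in the fourth iNP library. There were also *Sema5a* at 18.3 (below 20.0 to 20.2) in the second iSP library, *Epha3* at 132 (above 120.3 to 122) in the third iSP library, *Plxnd1* at 19.8 (below 30.6 to 32.4) in the first eUB library and *Sema5b* at 10.4 (below 14.1 to 14.7) in the first eUB library.

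Members whose mESC against E11.5 effect was called in opposite directions in a pair of cell types, and whose difference was itself called with limma over all genes, made up 26 pairs and 17 members. The share of all genes that meet this rule was not counted, so these counts have no background beside them. In 5 pairs (4 members) both effects had a size of at least 1. The effect on *Epha3* differed between UB and SP by -3.98 (SE 0.20, limma adjusted p = 3.2e-10), from -1.27 in UB and 2.71 in SP. The effect on *Epha3* differed between UB and NP by -4.54 (SE 0.37, limma adjusted p = 5.1e-08), from -1.27 in UB and 3.27 in NP. The effect on *Sema4a* differed between UB and NP by -2.34 (SE 0.21, limma adjusted p = 1.3e-07), from -1.03 in UB and 1.31 in NP. The effect on *Epha5* differed between SP and NP by -3.25 (SE 0.35, limma adjusted p = 2.7e-06), from -1.08 in SP and 2.17 in NP. The effect on *Sema5a* differed between SP and NP by -3.77 (SE 0.38, limma adjusted p = 1.5e-06), from -1.80 in SP and 1.97 in NP. *Sema4a* is low in E11.5 NP (0.468, 0.302, 0.256 and 0.376) and iNP (2.46, 2.07, 3.02 and 1.96), and macrophage markers moved with its fall in eUB. In the NP comparison *Sema4a* passed the filter through iNP alone. *Epha5* is low in every group. It passed the filter through E11.5 SP alone in the SP comparison and through iNP alone in the NP comparison, so both of its directions were fixed by the filter.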

How the results depend on the processing

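Leaving out 1 library at a time gave 8 to 34 called members between E12.5 and E11.5 UB, 5 to 26 in SP, 1 to 11 in NP and 17 to 29 between iNP and E12.5 NP, where 17.2 to 44.0, 2.91 to 21.5, 1.11 to 17.0 and 33.3 to 47.8% of all genes were called. The highest counts between the ages came without the first E12.5 library. With all 36 libraries in a fit, 10 members were called between E12.5 and E11.5 UB (15.9% of all genes), and with no filter 1 was called between E12.5 and E11.5 NP (3.09%); the cause was not tested. The other counts stayed within 1.5 times, and leaving out a library gave 27 to 34 for eUB, 26 to 34 for iSP and 27 to 36 for iNP against E11.5. In those fits 53.9 to 70.7, 61.5 to 72.4 and 57.9 to 72.0% of all genes were called. With the replicate block, 35 members were called between E12.5 NP and SP, where the numbers pair the samples, against 30 without it (45.2 and 38.0% of all genes), and it ended 1 call of a named value, *Plxna4* between E12.5 and E11.5 UB. Of 309 member fold changes of size 1 or more, none changed sign under any alternative in which it was tested, and 274 were tested and called under all of them. A further 20, of *Epha5*, *Epha6*, *Epha8*, *Plxna4*, *Sema3e*, *Sema3g* and *Sema4a*, were called wherever tested but did not pass the filter in every fit. The 15 that lost the call at least once were *Epha2* (E12.5 UB against mesenchyme, and UB between ages), *Plxna1* and *Sema5b* (difference between UB and NP), *Plxna2* (E12.5 NP against SP, eUB against E12.5 UB, and SP between ages), *Plxna4* (E12.5 UB against mesenchyme, and UB between ages), *Plxnd1* (E12.5 NP against SP), *Sema3a*, *Sema4d* and *Sema5b* (SP between ages), *Sema5a* (iNP against E12.5 NP) and *Sema5b* (E11.5 NP against SP). Leaving out the first E12.5 NP and SP libraries together was chosen after seeing the data. A pseudocount of 0.1 and edgeR gave larger folds for low genes, and a total below 1 normalised CPM rests on few reads in the shallowest library (13.0 M). edgeR on the recovered reads (100% of values whole) called 8520 genes in eUB, 9402 in iSP and 9114 in iNP against E11.5, where limma called 8445, 9411 and 9102; of the members it called 31, 35 and 36.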
